A study of Mus musculus with 158 samples.

Results

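Zbtb20, Fibcd1, Mpped1, Nov, Wfs1, Cpne4, Socs2, Nptx1 and Prox1 are genes known to mark hippocampal neurons or single fields of the hippocampus, and their levels are described here cell by cell in mouse brain slices and cultures. The genes were chosen by symbol for what is known of them, but with earlier results of these data known. All 9 were found among the 21956 genes of the count table. Single cells were taken up with a patch pipette, without treatment, and their polyA RNA was sequenced after 3 rounds of antisense RNA amplification. From acute slices there were 15 CA1 neurons, 5 CA3 neurons and 22 neurons of the cortex, all of the strain C57/BL6/N. From primary culture there were 8 hippocampal neurons (C57/BL6, 15 days), 13 cortical neurons (C57/BL6/N, at 6, 10, 13 or 15 days) and 86 cortical astrocytes at 7, 12, 14 or 15 days (C57/BL6 at 7 days and C57/BL6/N at the other ages). No label gives the age or sex of the mice, or says which cells share an animal or a culture. Each group was therefore counted as 1 sample, and the comparisons are descriptions of these cells with no test and no p-value.

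The hippocampus proper is built of pyramidal neurons in the fields CA3 and CA1, which pass signals on from the granule cells of the dentate gyrus. The fields differ in the genes their pyramidal neurons express, and Zbtb20, a zinc finger transcriptional repressor, is required for these neurons to take on a hippocampal rather than a neighbouring cortical identity. Fibcd1, a membrane receptor that binds acetylated sugars, and Wfs1, a protein of the endoplasmic reticulum, are known as markers of CA1 pyramidal cells. Mpped1, a phosphodiesterase, and Nov, a secreted matrix protein of the CCN family, are also listed for CA1. Cpne4, a copine that binds membranes in response to calcium, Socs2, a suppressor of cytokine signalling, and Nptx1, a pentraxin secreted at excitatory synapses, are listed for CA3. Prox1, a homeobox transcription factor, marks dentate granule cells and also interneurons of the caudal ganglionic eminence.

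In the GENCODE M21 annotation of GRCm38 the genes lie on 8 chromosomes. Zbtb20 spans chr16:42875881-43642602 on the plus strand and is overlapped on the opposite strand by 4 annotated genes, 3 of them antisense. Fibcd1 spans chr2:31813290-31846005 on the minus strand, Wfs1 chr5:36966104-36989205 on the minus strand, and Cpne4 chr9:104547286-105034544 on the plus strand. Mpped1 spans chr15:83779467-83858494 and Nov, named Ccn3 in that annotation, chr15:54745702-54754039, both on the plus strand. Socs2 spans chr10:95385362-95417180, Nptx1 chr11:119538719-119547753 and Prox1 chr1:190118035-190170714, all on the minus strand, and Prox1 is overlapped by 2 antisense genes. Whether the authors' counting used strand is not given in the sources used here, so reads of Zbtb20 and Prox1 could not be told apart from those of their antisense partners. For 6 of the 9 genes RefSeq promoters (GRCm38.p6) were found by symbol, each with 250 bases before and 50 after an annotated start. Those of Zbtb20, of the CA1 genes Fibcd1 and Wfs1 and of the CA3 gene Cpne4 (the first of its 2) are shown as examples of the genes described below. They are written 5′ to 3′ on the strand of the gene, with the E-box word CANNTG, which reads the same on both strands and is the binding word of basic helix-loop-helix factors, in capitals.
Zbtb20, chr16:43247034-43247333, plus strand: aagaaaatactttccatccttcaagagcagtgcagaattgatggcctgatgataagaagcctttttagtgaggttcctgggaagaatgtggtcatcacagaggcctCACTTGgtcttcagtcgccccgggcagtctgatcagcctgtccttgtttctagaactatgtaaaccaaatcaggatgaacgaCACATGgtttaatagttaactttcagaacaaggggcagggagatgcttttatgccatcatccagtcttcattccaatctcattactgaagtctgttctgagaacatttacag
Fibcd1, chr2:31845956-31846255, minus strand: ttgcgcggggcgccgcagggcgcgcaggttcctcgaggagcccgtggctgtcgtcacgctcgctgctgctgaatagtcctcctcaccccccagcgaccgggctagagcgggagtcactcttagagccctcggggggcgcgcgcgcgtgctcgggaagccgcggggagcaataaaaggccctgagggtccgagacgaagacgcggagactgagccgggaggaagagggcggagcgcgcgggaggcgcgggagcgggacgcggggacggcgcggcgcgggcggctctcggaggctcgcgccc
Wfs1, chr5:36988933-36989232, minus strand: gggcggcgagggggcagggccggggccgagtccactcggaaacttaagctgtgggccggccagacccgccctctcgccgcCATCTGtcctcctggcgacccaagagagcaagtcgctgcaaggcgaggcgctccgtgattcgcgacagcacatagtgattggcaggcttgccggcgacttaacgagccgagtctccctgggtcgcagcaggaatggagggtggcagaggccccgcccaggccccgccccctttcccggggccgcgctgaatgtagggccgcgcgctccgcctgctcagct
Cpne4, chr9:104569405-104569704, plus strand: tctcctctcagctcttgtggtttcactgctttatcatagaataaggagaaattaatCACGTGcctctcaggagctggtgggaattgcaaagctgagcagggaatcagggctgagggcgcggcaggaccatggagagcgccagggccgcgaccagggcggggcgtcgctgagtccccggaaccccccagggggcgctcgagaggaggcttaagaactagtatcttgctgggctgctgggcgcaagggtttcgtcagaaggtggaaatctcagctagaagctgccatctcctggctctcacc

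The word occurred 2 times in the Zbtb20 window, 1 time each in the Wfs1 and Cpne4 windows, and not in the Fibcd1 window. It was found in 72.3% of all 32851 promoters of the same length, so most promoters hold it. GC content was 74.3% at Fibcd1, 58.7% at Cpne4 and 43.3% at Zbtb20, against a median of 52.7% over all promoters, and that of Wfs1 lay between Fibcd1 and Cpne4. The starts used for Zbtb20 and Cpne4 lie inside the annotated genes. For Nov, Socs2 and Nptx1 no promoter was matched.

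Counts per cell ranged from 535369 to 14594389 in CA1, from 1958961 to 10079218 in CA3 and from 1800651 to 16251918 in cortical slice neurons. In culture they ranged from 4654244 to 21214980 in hippocampal neurons, from 2953361 to 34292582 in cortical neurons and from 1089796 to 38680739 in astrocytes. A level is given in counts per 1000000 (CPM), either of 1 cell or summed over all cells of a group. CPM do not correct for gene length, so levels are compared between groups and not between genes. A gene was detected in a cell when it had at least 5 counts after the cell was thinned at random to 1000000 counts. CA1 cell 12, with 535369 counts, was below this depth, which left 14 CA1 cells for shares of detection. Intervals are 95%, exact Poisson for summed counts and Clopper-Pearson for shares. Those of summed counts cover counting error only, and reads carry no molecular identifiers. Those of shares take each cell as an independent draw, although cells may share an animal or culture. The shares of cells that they are said to allow hold only under that assumption.

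The labelled cell types were checked against marker lists. All 5 CA3 cells lacked detectable Gad1, the enzyme that makes GABA, and Slc17a7, the vesicular glutamate transporter of pyramidal cells, was detected in 4 of them. Slc17a7 was detected in 6 and Gad1 in 4 of 14 CA1 cells, and Gad1 in 7 of 22 cortical slice neurons. Gad1 was detected in all 8 cultured hippocampal neurons, with a median of 8 of 12 inhibitory markers per cell and a summed level of the 12 of 9487 to 23706 CPM, against 0 to 1.22 CPM in CA3. Among their titles M1 and M9 occur with both S and D, letters that the labels do not explain, so that 2 pairs may share a cell (r of 0.719 and 0.706). The cells labelled as cultured hippocampal neurons thus carried markers of inhibitory neurons, while the summed level of 10 excitatory markers was 78.5 to 444 CPM in them and 1792 to 6315 CPM in CA3. At least 2 microglia markers were detected in 8 of 14 CA1, 1 of 5 CA3 and 12 of 22 cortical slice cells, in none of the cultured hippocampal neurons and in 3 of 13 cultured cortical neurons. A larger share of astrocyte than of neuron markers was detected in 2 cortical slice neurons, 3 cultured cortical neurons and 82 of 86 astrocytes, and Aldh1l1, an astrocyte enzyme, had no count in any slice group.

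**Figure D1:**
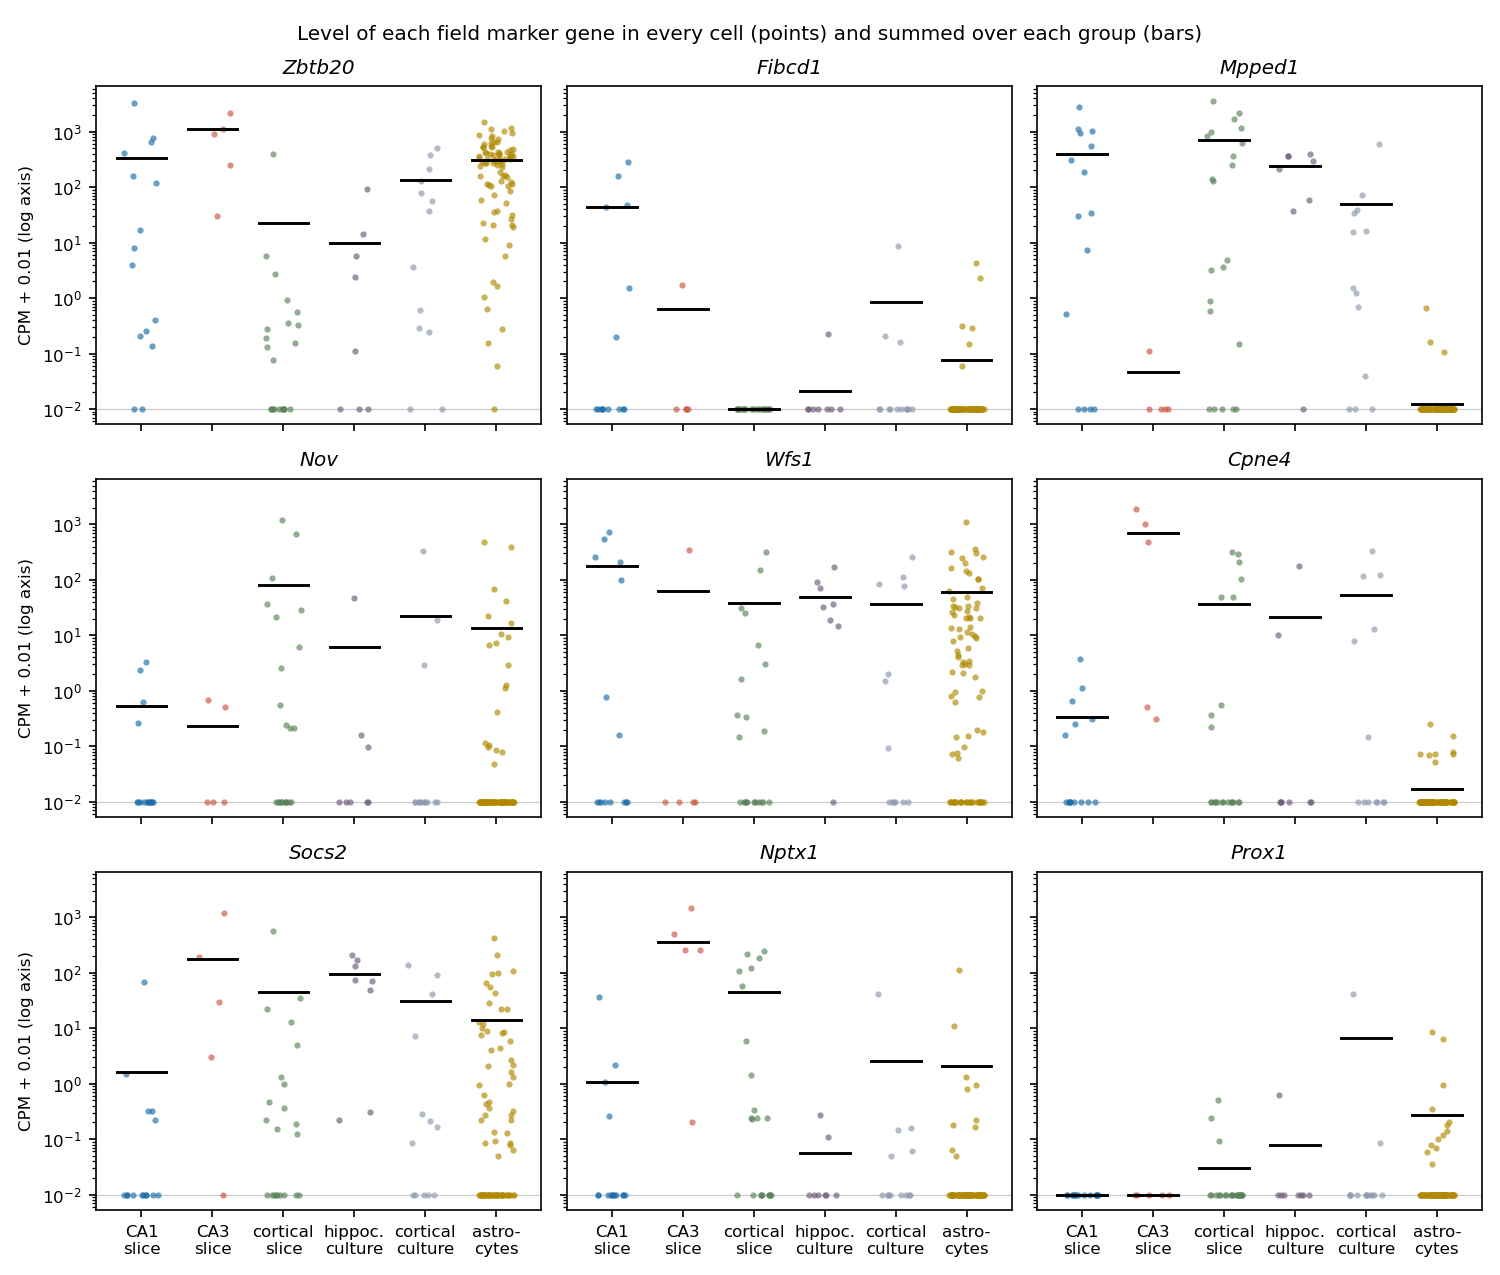
Level of each gene in every cell (points, CPM + 0.01 on a log axis) in the 6 groups, with the level summed over the group as a black bar and cells without a count on the grey line. Cpne4 and Nptx1 lie highest in CA3, Fibcd1 is above 10 CPM only in 4 CA1 cells, and Zbtb20 is spread over astrocytes and both hippocampal slice groups.

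Zbtb20 was at a higher level in both hippocampal slice groups than in cortical slice neurons. In the CA3 cells 1 to 5 it stood at 912, 2201, 1097, 30.3 and 254 CPM. In the 15 CA1 cells the lowest level was 0, the median 7.89 and the highest 3293 CPM, in cell 11. The 22 cortical slice neurons had a median of 0.0952 CPM, and all but 1 of them were at or below 5.62 CPM. CA3 cells thus all lay above every cortical slice neuron except cortical cell 16, whose 395 CPM overlapped both hippocampal groups. That cell carried 97.8% of the Zbtb20 counts of its group. Detection followed the same order, with 5 of 5 CA3 cells (interval 47.8% to 100%), 8 of 14 CA1 cells (57.1%, interval 28.9% to 82.3%) and 2 of 22 cortical slice neurons (9.09%, interval 1.12% to 29.2%).

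Summed over cells, Zbtb20 reached 1116 CPM (interval 1103 to 1129) in CA3, 329 CPM (325 to 333) in CA1 and 22.8 CPM (22 to 23.5) in cortical slice neurons. On the scale log2(CPM + 1), used for all log2 ratios, this was 3.79 higher in CA1 and 5.55 higher in CA3 than in the cortex, or 14.4-fold and 49-fold in CPM. Without cortical cell 16 the differences from the cortex grew to 7.75 and 9.51, without CA1 cell 11 that of CA1 was 2.87, and without CA3 cell 2 that of CA3 was 4.36. Libraries had been basecalled with either bcl2fastq or the later bcl2fastq2, and the level was higher in CA1 with each, at 88.8 CPM against 0.169 CPM in the cortex with bcl2fastq and 441 against 34.9 CPM with bcl2fastq2. CA3 exceeded CA1 by 1.76 on this scale, but by 0.56 without CA3 cell 2 and by 2.69 without CA1 cell 11. The ratio of the means of cells was 1.31, and -0.28 or 0.07 with library scaling by edgeR or DESeq2. An order of the fields was thus not settled by these cells.

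Markers of glia moved with Zbtb20 in part. CA3 cell 2 was the CA3 cell with 2 microglia markers, and the 4 others had 486 CPM. The 8 CA1 cells with at least 2 microglia markers had 434 CPM and the 6 without 82.8 CPM, with detection in 4 cells of each kind. Both cortical neurons in which Zbtb20 was detected carried at least 2 microglia markers, and the 10 without them had 0.297 CPM, so the order of the 3 groups was the same without such cells. Summed over 12 astrocyte markers, the median cell had 4139 CPM in CA3, 123 CPM in CA1 and 1168 CPM in the cortex. In CA3 Slc1a2, a glutamate transporter also transcribed by CA3 neurons, had 2992 CPM. Gfap and Aldh1l1 had no count there, and Aldh1l1 had none in CA1 or the cortex either. Of the 12 markers, 6 were detected in a CA3 cell, 8 in a CA1 cell and 11 in a cortical cell. Of 10 measured between CA3 and CA1, 5 were higher in CA3 and 5 lower. The part of astrocyte RNA in these levels was not tested. By inhibitory identity, the 10 CA1 cells without detected Gad1 had 438 CPM of Zbtb20 and the 4 with it 5.28 CPM.

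Outside the slices Zbtb20 was most often detected in astrocytes, where it is known to be expressed, in 78 of 86 cells (90.7%, interval 82.5% to 95.9%) with a lowest, median and highest level of 0, 281 and 1511 CPM. By culture age the summed level was 337 CPM in 3 cells at 7 days, 294 CPM in 70 at 12 days, 354 CPM in 5 at 14 days and 436 CPM in 8 at 15 days. The 12-day cells, which make up most of the group, had the lowest of these levels. Cultured cortical neurons had 136 CPM with detection in 7 of 13, from 0.345 CPM at 6 days in 3 cells to 265 CPM at 13 days in 4 cells, in which it was detected throughout. The 6-day and 15-day cells were basecalled with bcl2fastq and the 10-day and 13-day cells with bcl2fastq2, so the 2 pairs of ages and the software cannot be told apart. Within each the level was 0.345 CPM at 6 and 30.3 CPM at 15 days, and 146 CPM at 10 and 265 CPM at 13 days. At 15 days cell 4 had 128 CPM and cells 5 and 6 had 0.282 and 3.6 CPM. At 10 days cell 12 had 209.8 CPM and cells 11 and 15 had 0 and 55.2 CPM. Cells 4 and 6, and cell 9 at 13 days with 515 CPM, had more astrocyte than neuron markers. A change with age was not tested. In the cultured hippocampal neurons 1 to 8 the gene stood at 2.4, 93.4, 0, 14.6, 0, 5.66, 0.1 and 0 CPM. Only cells 2 and 4 passed the detection limit, and the group's summed 9.93 CPM was the lowest of the 6 groups. In order, the levels ran from CA3 through CA1, astrocytes, cultured cortical neurons and cortical slice neurons to cultured hippocampal neurons, and the middle 50% of cells overlapped between all neighbours in this order.

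Of the genes listed for CA1, Fibcd1 was close to absent outside that field. It stood at 287 CPM in CA1 cell 1, 159 in cell 4, 47.7 in cell 13 and 43.4 in cell 8, with 1.51 CPM in cell 7, 0.193 CPM in cell 6 and no count in the other 9. The high cells thus numbered 4 of 14 at depth (28.6%, interval 8.39% to 58.1%), and CA1 cells 1, 4, 8 and 13 all had Mpped1 detected as well. None of the 22 cortical slice neurons had a single count, which allows a share of up to 15.4% of cells, and in CA3 only cell 2 had counts, at 1.69 CPM. The summed 43.4 CPM (interval 42 to 44.9) of CA1 was at least 2202-fold higher than the level that 3 counts over the cortical group would give. It was 70.1-fold higher than the 0.619 CPM of CA3, a log2 ratio of CA3 to CA1 of -4.78, and -3.82 without CA1 cell 4 or -5.47 without CA3 cell 2. Without CA1 cell 4 the ratio to the cortex was 4.51 in place of 5.47. CA1 had 126 CPM with bcl2fastq and 4.67 CPM with bcl2fastq2, against no count in the cortex with either. Of the 4 high cells, 3 carried at least 2 microglia markers, and such CA1 cells had 60.5 CPM against 3.39 CPM in the others, a difference whose source was not tested. The other groups had 0.841 CPM in cultured cortical neurons, 96% of it from cell 6, 0.0659 CPM in astrocytes and 0.0114 CPM, a single count, in cultured hippocampal neurons.

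Wfs1, whose loss causes Wolfram syndrome, was high in a minority of CA1 cells and was present at moderate levels in every group. The CA1 cells with the most were cell 4 at 720.4, cell 14 at 540.3, cell 1 at 255, cell 2 at 210.1 and cell 6 at 101 CPM. The other 10 CA1 cells, cell 12 below the detection depth among them, had at most 0.754 CPM. Levels in the field were thus either high or near 0, and whether the low cells lacked this RNA was not tested. In CA3, cell 1 stood at 352 CPM and the other 4 cells had no count. Cortical slice neurons had a median of 0.0699 CPM and reached 324 CPM in cell 16 and 151 CPM in cell 4, so they overlapped CA1. Detection was 5 of 14 in CA1 (35.7%, interval 12.8% to 64.9%), 1 of 5 in CA3 and 6 of 22 in the cortex (27.3%, interval 10.7% to 50.2%). Summed, CA1 at 175 CPM exceeded the cortex at 38.3 CPM by 2.16 on the log2 scale, but by 0.91 without CA1 cell 4, by 2.77 without cortical cell 4 and by 2.98 without cortical cell 16. With bcl2fastq2 alone the difference was 0.82, from 57.7 and 32.4 CPM, and with bcl2fastq CA1 had 424 and the cortex 49.4 CPM. CA3 at 63.1 CPM was lower than CA1 by a log2 ratio of -1.46, which became -0.21 without CA1 cell 4, -0.80 without CA3 cell 2 and -7.46 without CA3 cell 1, and fell just short of 2-fold without CA3 cell 4.

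Mpped1 was at a high level in both CA1 and the cortex, which differed by less than 2-fold in sum, and only in CA3 and astrocytes was it near 0. In CA1 it ranged from 0 to 2817 CPM with a median of 34.5 CPM and was detected in 10 of 14 cells (71.4%, interval 41.9% to 91.6%). Cortical slice neurons ranged from 0 to 3515 CPM with a median of 66.4 CPM and detection in 13 of 22 (59.1%, interval 36.4% to 79.3%). The ranges of these groups overlapped, and the summed 396 and 710.4 CPM gave a log2 ratio of CA1 to cortex of -0.84. With the means of cells it was -0.22. In CA3 a single count was found among 5 cells, 0.0364 CPM (interval 0.000922 to 0.203), with none of the 5 detected, which allows up to 52.2% of cells. CA3 lay below CA1 by a log2 ratio of -8.58 and below the cortex by -9.42, and without CA1 cell 10 the ratio to CA1 was -7.81. Without CA1 cell 10 the ratio of CA1 to the cortex was -1.61, and without cortical cell 12, which held 34.7% of the cortical counts, it was -0.33. The level thus lay far higher in CA1 than in CA3, with CA1 and cortical cells overlapping. Cultured hippocampal neurons had 360.4, 367, 0, 36.9, 211, 302, 59.1 and 392 CPM in cells 1 to 8, so that 7 of 8 had at least 36.9 CPM and cell 3 had none. In the 86 astrocytes Mpped1 totalled 3 counts.

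Nov went against its listing for CA1. No CA1 cell reached the detection limit, with counts in 4 of 15 cells and a highest level of 3.32 CPM in cell 5, and no CA3 cell did either, with 0.663 CPM at most. Among cortical slice neurons it was detected in 8 of 22 (36.4%, interval 17.2% to 59.3%), led by cell 2 at 1178, cell 6 at 661 and cell 13 at 108 CPM, with a median of 0.205 CPM. The summed level was 0.514 CPM in CA1, 0.219 CPM in CA3 and 82.4 CPM in the cortex, log2 ratios to the cortex of -5.78 for CA1 and -6.10 for CA3. Without cortical cell 2, which held 56% of the counts, these were -4.68 and -4.99. Among slice cells Nov was thus detected in cortical neurons alone. Of these 8 cells 7 also had Slc1a3, an astrocyte glutamate transporter, detected, which was found in 8 of the 22, and the part of astrocyte RNA in the level of Nov was not tested. The 20 cortical cells without more astrocyte than neuron markers had 84.1 CPM, and the labels do not say from which part of CA1 the cells were taken. In culture it stood at 48.2 CPM in hippocampal neuron 5 and at 337, 18.8 and 2.9 CPM in cortical neurons 4, 6 and 9, with at most 0.149 CPM in any other cultured neuron. Those 3 cortical neurons were the ones with more astrocyte than neuron markers, and the other 10 had no count of Nov. Its detection in 10 of 86 astrocytes (11.6%, interval 5.72% to 20.3%) reached 476 CPM.

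The genes listed for CA3 were high in CA3 and low in CA1. Cpne4 stood at 489, 0.298, 1027, 1871 and 0.510 CPM in CA3 cells 1 to 5, which split into 3 high and 2 low cells. In CA1 the highest of 15 cells reached 3.67 CPM and 0 of 14 were detected, which allows up to 23.2% of cells. The 3 high CA3 cells thus exceeded all CA1 cells, and also all cortical slice neurons, whose median was 0 and whose highest was 319 CPM in cell 16. Summed, CA3 had 712 CPM (interval 702 to 722), CA1 0.334 CPM (0.218 to 0.489) and the cortex 36.7 CPM (35.7 to 37.7), with 6 of 22 cortical cells detected. The log2 ratio to CA1 was 9.06, and without CA3 cell 4 it was 7.68, without CA3 cell 2 it was 9.72. The ratio of CA3 to the cortex was 4.24, which became 2.86 without CA3 cell 4, 4.90 without CA3 cell 2 and 5.09 without cortical cell 16. CA1 was below the cortex by a log2 ratio of -4.82, or -3.97 without cortical cell 16. All 6 cortical cells in which Cpne4 was detected carried at least 2 microglia markers, and the 10 cells without them had 0.0424 CPM.

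Nptx1 was detected in 4 of the 5 CA3 cells (80%, interval 28.4% to 99.5%), at 254, 0.198, 1442, 492 and 255 CPM in cells 1 to 5. In CA1 only cell 8 was detected, at 37.2 CPM, and the next highest cell had 2.13 CPM. The cortex was intermediate, with 7 of 22 cells detected (31.8%, interval 13.9% to 54.9%) up to 248 CPM in cell 4. The 4 CA3 cells in which it was detected thus lay above every CA1 and every cortical cell, 2 of them by a small margin. The summed levels were 354 CPM in CA3, 1.04 CPM in CA1 and 45 CPM in the cortex. CA3 exceeded CA1 by 7.44 on the log2 scale, by 6.78 without CA3 cell 3, 8.10 without CA3 cell 2 and 8.21 without CA1 cell 8. It exceeded the cortex by 2.95, by 2.28 without CA3 cell 3, 3.61 without CA3 cell 2 and 4.03 without cortical cell 4. CA1 lay below the cortex by -4.49, by -5.26 without CA1 cell 8 and by -3.41 without cortical cell 4. Nptx1 was the 1 member for which the middle 50% of cells of the highest group did not overlap that of the next, the cortical slice neurons. With bcl2fastq2 alone CA1 was below the cortex by -2.56 and CA3 above it by 4.79.

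Socs2 was less even, at 189, 29.6, 1192, 0 and 3.06 CPM in CA3 cells 1 to 5, with 3 of 5 detected. In CA1 it was detected in cell 8 alone, at 67 CPM, the same cell in which Nptx1 was found, and the others had at most 1.51 CPM. In cortical slice neurons it was detected in 4 of 22, of which cell 12 at 563 CPM carried 87.5% of the counts. Only CA3 cell 3 therefore exceeded all cortical cells. Summed, the levels were 173 CPM in CA3, 1.63 CPM in CA1 and 45.2 CPM in the cortex. CA3 exceeded CA1 by 6.05 on the log2 scale, by 4.29 without CA3 cell 3 and 7.30 without CA1 cell 8. The excess of CA3 over the cortex, 1.92, was 0.15 without CA3 cell 3 and 4.62 without cortical cell 12. With the means of cells it was 3.23, and these gave 0.05 with the scaling of edgeR and -0.42 with that of DESeq2. CA1 lay below the cortex by -4.13, by -5.38 without CA1 cell 8 and by -1.43 without cortical cell 12. Without the slice cells that carried 2 microglia markers, which include cortical cell 12, the ratio was 1.10.

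Prox1 was not found in the pyramidal fields. It had no count in any of the 15 CA1 or 5 CA3 cells, 3 counts over 22 cortical slice neurons and 6 counts, all in 1 cell, in the cultured hippocampal neurons. The single neuron in which it was detected was cultured cortical neuron 12, at 40.7 CPM, a cell at 10 days of culture that held 99.9% of the counts of its group. Gad1 was detected in that cell, and the 6 cultured cortical neurons without detected Gad1 had 1 count of Prox1 in all. Among astrocytes 2 of 86 were detected, at up to 8.67 CPM. No count of this dentate marker was thus found in the pyramidal fields, which allows a share of up to 23.2% of CA1 and 52.2% of CA3 cells detected.

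**Figure D2:**
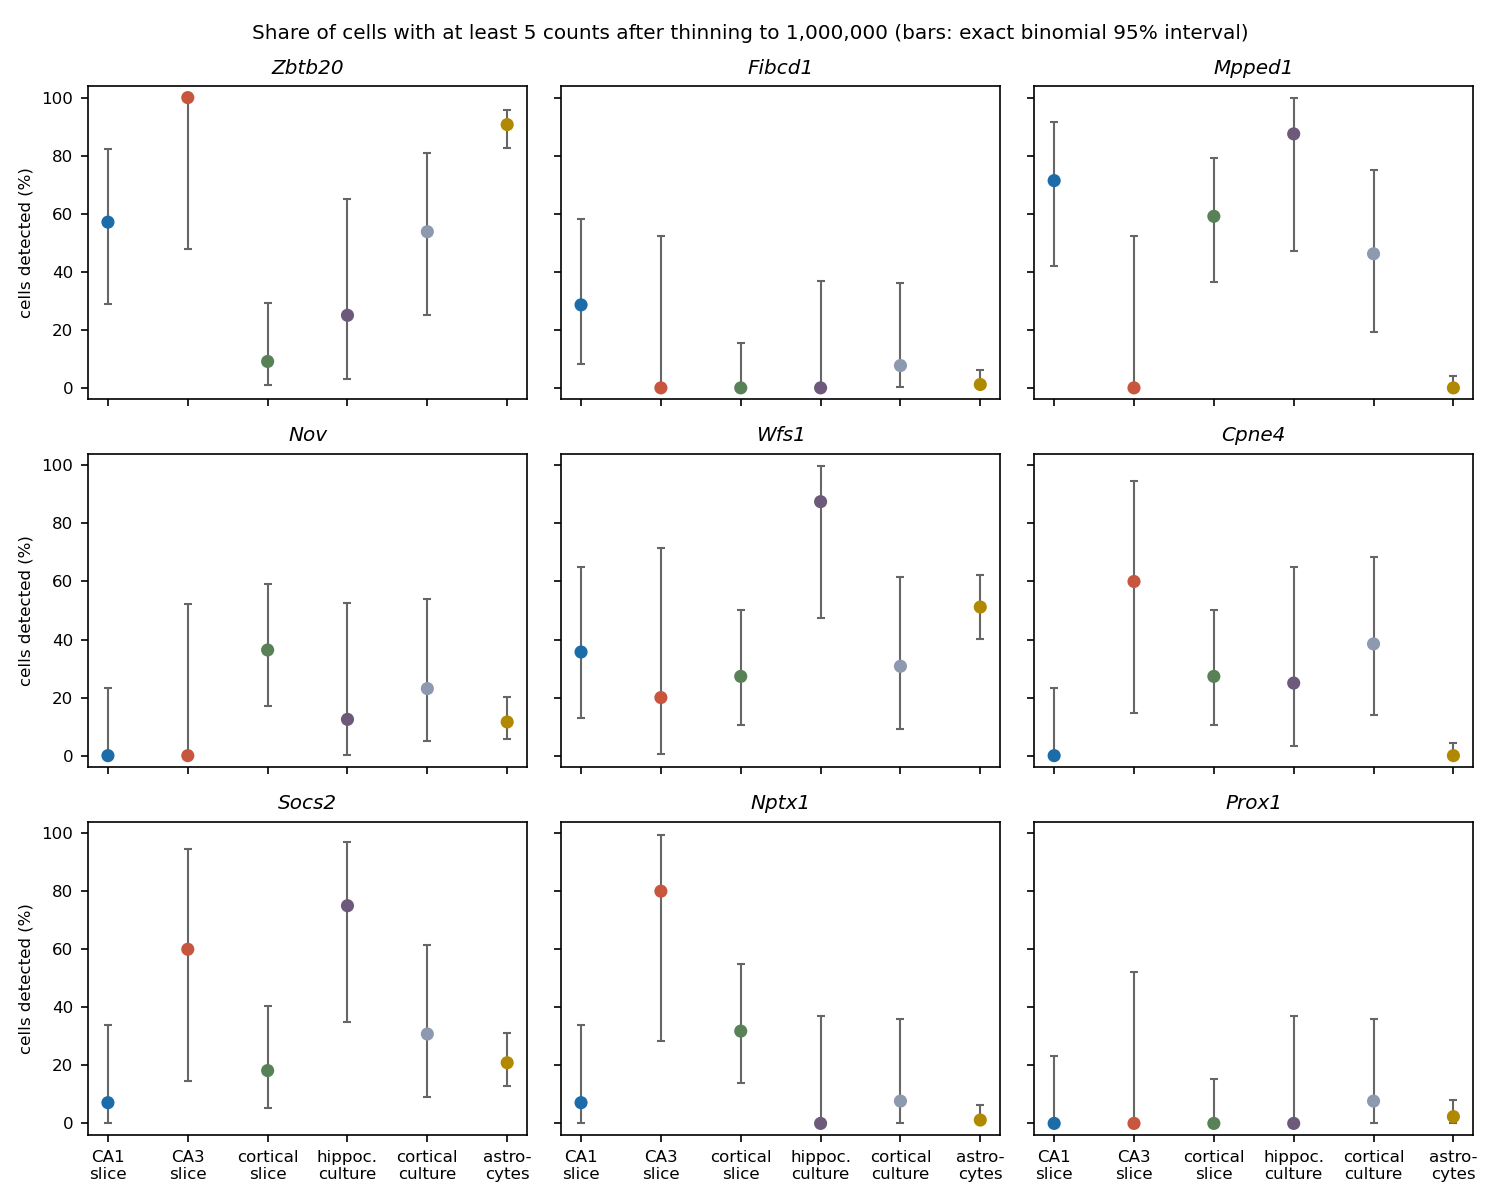
Share of cells in which each gene was detected (at least 5 counts after thinning to 1000000 counts) in the 6 groups, with Clopper-Pearson 95% intervals as bars. Zbtb20 was detected in 5 of 5 CA3 cells and 78 of 86 astrocytes, whereas Fibcd1 was detected in 4 of 14 CA1 cells and in no slice neuron of the other groups.

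Differences of 2-fold or more in summed CPM were common among all genes, so the members' counts are given beside that share. Between CA1 and cortical slice neurons 8 members were measured, meaning that the cells compared held at least 10 counts in sum and that 3 or more of them had one. Of these, 3 (Zbtb20, Fibcd1, Wfs1) were at least 2-fold higher in CA1, where 22.6% of all 12666 measured genes were. A further 4 (Nov, Cpne4, Socs2, Nptx1) were at least 2-fold lower, against 39.8% of all genes. Between CA3 and CA1, 8 were measured, and 4 (Zbtb20, Cpne4, Socs2, Nptx1) were at least 2-fold higher in CA3, against 24.8% of 9378 genes. Lower in CA3 were 3 (Fibcd1, Mpped1, Wfs1), against 46.2% of genes. Between CA3 and the cortex, 7 were measured, and 4 (Zbtb20, Cpne4, Socs2, Nptx1) were at least 2-fold higher in CA3, against 16.9% of 11678 genes, and 2 (Mpped1, Nov) lower, against 53.7%. The median log2 ratio of the measured members was 0.72 for CA3 over CA1, against -0.70 over all genes, 1.92 for CA3 over the cortex, against -1.29, and -2.49 for CA1 over the cortex, against -0.37. The comparisons share their slice groups, so they are not independent of each other.

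**Figure D3:**
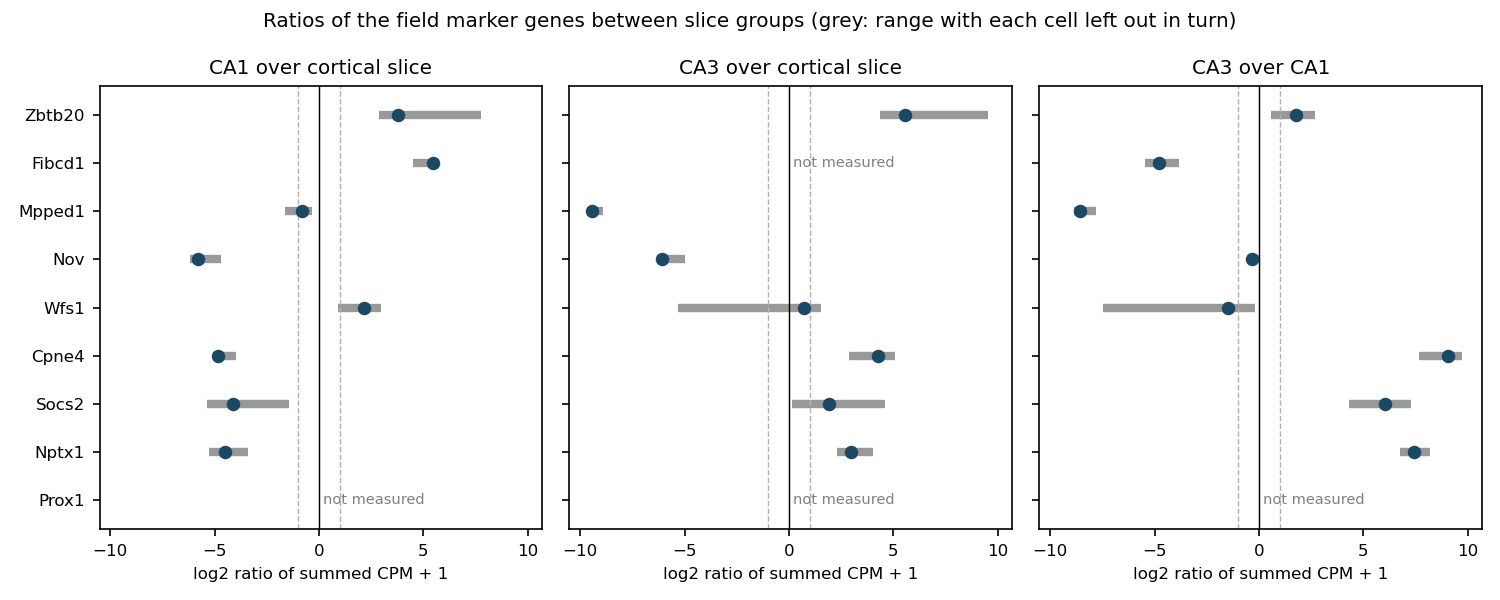
Log2 ratio of the summed CPM + 1 of each gene (points) for CA1 over cortical slice neurons, CA3 over cortical slice neurons and CA3 over CA1, with the range over leaving out each cell in turn in grey, the 2-fold limits as dashed lines and genes that were not measured named as such. Cpne4 and Nptx1 keep more than 2-fold differences in all panels, whereas Wfs1 crosses the 2-fold limit in each.

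In the hippocampal slices few CA1 cells had a CA3 gene detected and few CA3 cells a CA1 gene. These low shares alone leave few cells that could hold both sets, and pairing within cells was not tested. Of 14 CA1 cells, 10 had at least 1 of the 4 CA1 genes (Fibcd1, Mpped1, Nov, Wfs1) detected, and 1 of these, cell 8, also had a CA3 gene (Cpne4, Socs2, Nptx1). The other 4 had neither, cells 9 and 15 having none of the 9 genes and cells 7 and 11 Zbtb20 alone. All 5 CA3 cells had a CA3 gene, and cell 1 also had Wfs1. Every CA1 cell with Wfs1 or Fibcd1 had Mpped1 too, while Zbtb20 was detected in 6 of the 10 CA1 cells with Mpped1 and in 2 of the 4 with Fibcd1. In CA3, Zbtb20 was detected in all cells, Cpne4 and Nptx1 together in cells 1, 3 and 4, and Socs2 with both in cells 1 and 3. Among cortical slice neurons 17 of 22 had a CA1 gene, 10 a CA3 gene and 9 both, so the sets that parted CA1 from CA3 cells were mixed in the cortex. Cells with the title letter F (5 cells, letter not explained in the labels) had Mpped1 detected in 4 and none of Nov, Cpne4, Socs2 or Nptx1, which were detected in 7, 5, 4 and 6 of the 16 cells with the letter P.

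**Figure D4:**
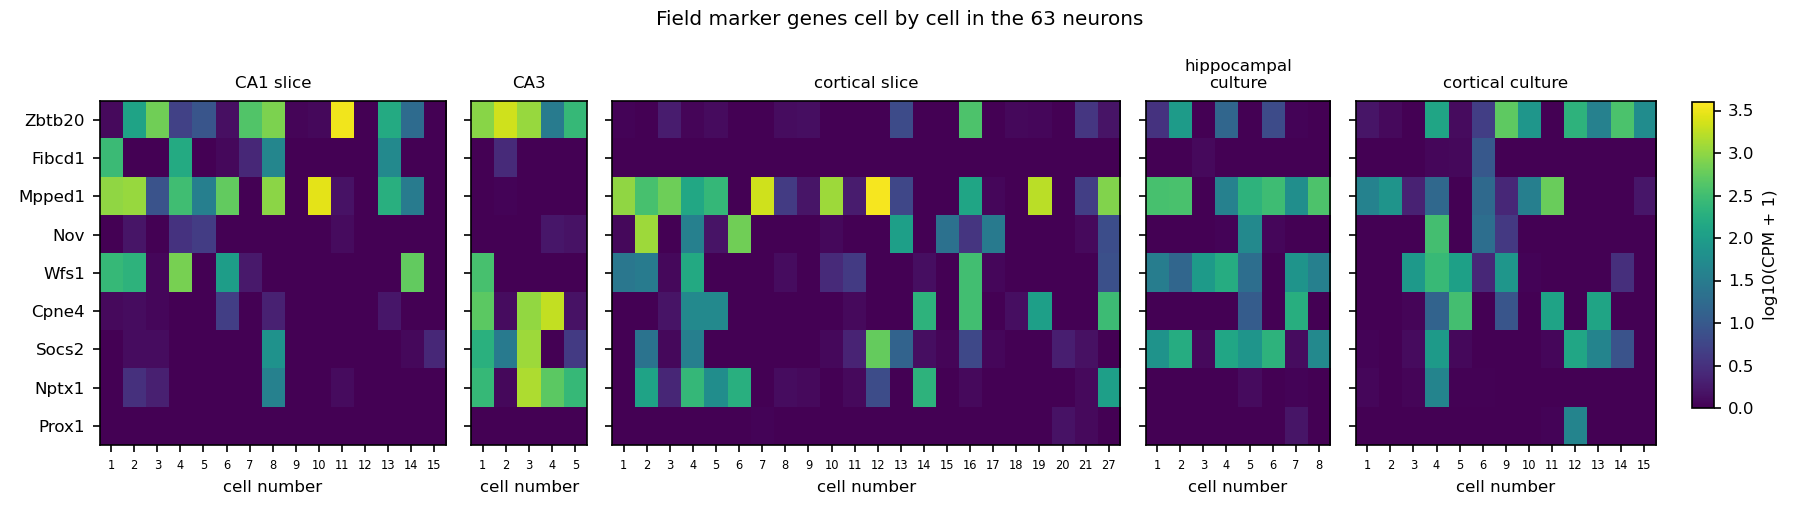
Level of each gene, as log10(CPM + 1) in colour, in every one of the 63 neurons, numbered within their group. CA3 cells carry Zbtb20 with Cpne4, Socs2 or Nptx1, most CA1 cells carry Mpped1 with or without Fibcd1, Wfs1 and Zbtb20, and cortical slice neurons mix both sets.

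Other genes known for the fields were read in the same way. Of all 9378 genes measured between CA3 and CA1, 35.6% were higher in CA3. Of 10 further CA3 markers among the counted genes 7 were measured between CA3 and CA1, and 5 were higher in CA3, with a median log2 ratio of 2.09. Pvrl3, a cell adhesion nectin, had 572 CPM in CA3 and 28 CPM in CA1, Elavl2, an RNA-binding protein, 279 and 64.9 CPM with detection in 5 of 5 against 4 of 14 cells, and Bok, a BCL2 relative, 69 and 13.8 CPM. Spock1, a proteoglycan, was detected in 4 of 5 CA3 and 3 of 14 CA1 cells but was lower in summed level, at 36 and 57.8 CPM. Of 10 further CA1 markers 7 were measured, and 6 were lower in CA3, with a median of -2.40, where 64.4% of all genes were not higher in CA3. Lefty1, a secreted nodal antagonist, had no count in CA3 and 22.7 CPM in CA1, Man1a, a mannosidase, 0.0364 and 28.1 CPM, and Pou3f1, a POU transcription factor, 62.3 and 165 CPM. Etv1, an ETS transcription factor, went the other way, with 271 and 45.2 CPM. Most of the CA1 list thus went the way of most genes, and 5 of 7 measured genes of the CA3 list went the other way. Markers of other cells moved too: all 7 measured inhibitory markers (median -7.66) and 9 of 10 microglia markers (median -8.63) were lower in CA3 than in CA1, and their part in the members' levels was not tested.

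Among transcription factors of the hippocampus, Neurod6 was detected in 5 of 5 CA3 and 3 of 14 CA1 cells. Neurod1 had 209 CPM in CA3 and 4.68 CPM in CA1. The Bcl11b level of 2798 CPM in CA3 came with detection in 1 of 5 cells, against 8 of 14 cells and 649 CPM in CA1. Of the CA2 markers, Necab2, a calcium-binding protein, had 343 CPM in CA3 and 1.45 CPM in CA1, while Rgs14, a regulator of G protein signalling, had none in CA3 and 29.5 CPM in CA1, and 3 of 7 measured were higher in CA3. Of the dentate markers 6 were measured and all were lower in CA3 than in CA1, the direction of most genes, such as Stxbp6 and Calb1, which had no count in CA3 and 407 and 12.2 CPM in CA1. Between CA1 and the cortex, Lefty1 (22.7 and 0.0197 CPM) and Pou3f1 (165 and 6.25 CPM) were higher in CA1, and in all 4 of 9 measured CA1 markers were higher there, as were 38.9% of all genes measured. The neocortical markers Fezf2 (0.0514 and 81 CPM) and Cux2 (0.0128 and 6.4 CPM) were close to absent from CA1, while 6 of 12 neocortical markers measured were lower there and 6 higher.

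The cultured hippocampal neurons differed from the slice groups in these genes. Gad1 was detected in all 8 of them and in 4 of 14 CA1 cells. The CA1 cells with detected Gad1 had a lower Zbtb20 level than those without, as given above. Strain also differed, so culture, strain and kind of neuron cannot be told apart in this comparison. Against CA1, 8 members were measured. At least 2-fold lower in culture were 3, Zbtb20 (log2 ratio -4.91), Fibcd1 (-5.46) and Wfs1 (-1.79), where 18% of 12806 genes were, and 3 were at least 2-fold higher, Socs2 (5.16), Cpne4 (4.07) and Nov (2.27), where 51.9% of genes were. Wfs1 was nevertheless detected in 7 of 8 cultured cells, at 14.5 to 168 CPM and 0 in cell 6, and without CA1 cell 4 the ratio was -0.54, without hippocampal cell 4 -2.40 and with bcl2fastq2 alone -0.21. Without CA1 cell 4 that of Fibcd1 was -4.50. Nov rested on hippocampal cell 5 and Cpne4 on cell 7 at 177 CPM, without which the ratios were -0.54 and 0.90. With the means of cells the ratio of Nov was 2.30, and -0.51 with the scaling of DESeq2. Zbtb20 rested in culture on cell 2, without which the ratio was -6.17, and without CA1 cell 11 it was -3.99. Socs2 was the most even of the higher genes, at 70.8, 166, 0.215, 132, 75.1, 212, 0.301 and 48.2 CPM in cells 1 to 8, and without CA1 cell 8 its ratio was 6.42. Nptx1 totalled 4 counts over these 8 cells. All 8 had a CA1 gene and 7 a CA3 gene detected, in cells with a median of 7508 genes detected, against 1899 in CA1 and 2166 in CA3.

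Against cultured cortical neurons all 9 members were measured, of which 2 were at least 2-fold higher in the hippocampal cultures, where 30.3% of 13485 genes were, and 5 at least 2-fold lower, where 25.3% were. Higher were Mpped1, at 241 and 49 CPM (log2 ratio 2.28, and 4.14 without cortical culture cell 11 at 596 CPM), and Socs2, at 93.3 and 30.5 CPM (1.58, and 3.12 without cortical culture cell 12 at 136 CPM). Mpped1 was detected in 7 of 8 against 6 of 13 cells and Socs2 in 6 of 8 against 4 of 13, where the median cell had 7508 and 4439 genes detected. With the means of cells the ratio of Mpped1 was 1.84, but with the scaling factors of edgeR and DESeq2 it was -1.02 and -3.20. Lower were Zbtb20 (-3.65, or -4.90 without hippocampal cell 2), Prox1 (-2.85, with 99.9% of the cortical counts in cell 12), Nptx1 (-1.78, with 99.1% in cell 4), Nov and Cpne4. All 11 measured astrocyte markers (median -4.11) and all 10 oligodendrocyte lineage markers (median -3.71) were lower as well, and Gfap was detected in 5 of the 7 cultured cortical neurons with Zbtb20. The part of glial RNA in these ratios was not tested. The ratio of Nov, -1.69, became 1.28 without cortical culture cell 4, 2.54 with bcl2fastq2 alone and -4.50 without hippocampal cell 5, and that of Cpne4, -1.26, became 0.45 without cortical culture cell 5, -0.88 without hippocampal cell 1 and -4.43 without hippocampal cell 7. The direction of both thus depended on single cells. Strain, and in part culture age and basecalling software, also differed between these groups and cannot be told apart from the region.

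Astrocytes of the cortex shared Zbtb20 with the hippocampal slices and had Mpped1 and Cpne4 at or near 0. Against cultured cortical neurons 9 members were measured, of which 1, Zbtb20 (log2 ratio 1.19), was at least 2-fold higher in astrocytes, where 29.8% of 17473 genes were. At least 2-fold lower were 4, against 19.9% of genes, namely Mpped1 (-5.64, or -3.77 without neuron 11), Cpne4 (-5.74, or -4.02 without neuron 5), Prox1 and Socs2. Without neuron 12 the ratio of Prox1 was 0.33 in place of -2.60 and that of Socs2 was 0.45 in place of -1.09, which without neuron 4 was -0.90. Mpped1 and Cpne4 were detected in 0 of 86 astrocytes, which allows up to 4.2% of cells. Wfs1 was detected in 44 of 86 (51.2%, interval 40.1% to 62.1%), with a median of 3.42 and a highest level of 1129 CPM, and Socs2 in 18 of 86. By age, Wfs1 had 0.9, 34.2, 305 and 43.5 CPM at 7, 12, 14 and 15 days, and the highest cell, cell 16, was 1 of the 5 cells at 14 days.

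The genes whose log2(CPM + 1) followed that of a member most closely over the 63 neurons were found for 5 members at a Pearson r of at least 0.6. These points share libraries and their depth, and many are cells without a count, so r is given as a description. For Nov they were Wnt7b, a secreted Wnt ligand (0.70), Pnma1 (0.65) and Kcnh3, a potassium channel (0.64). For Nptx1 they were Vipr1, a receptor of vasoactive intestinal peptide (0.64), Nrn1, neuritin (0.62) and Pcsk5, a proprotein convertase (0.60). For Socs2 they were Apbb3 (0.66), Lhpp (0.63) and Eif2b2 (0.63), and for Wfs1 Kpna6, an importin, and Mat2b (each 0.60). For Prox1, Erich2 (0.98), Scml4 (0.89) and Rp1 (0.89) rested on cultured cortical neuron 12, since only 6 neurons had a count of Prox1. Zbtb20, Fibcd1, Mpped1 and Cpne4 had no such gene. Among the members themselves Cpne4 and Nptx1 were most alike (0.54), and Zbtb20 and Mpped1 had the lowest value (-0.25).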

How the data were processed

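Raw counts of reads per gene were deposited by the authors as 1 table of 158 libraries and 21956 genes. They were made with STAR and HTSeq from reads basecalled with bcl2fastq 1.8.4 or bcl2fastq2 2.17, on mm10 (GRCm38), per the submitters' processing notes. The versions of STAR and HTSeq, the gene annotation and the strand setting were not stated there.

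There were 9 pairs of repeat libraries, 8 named as such by their titles and 1 found by its counts. They correlated at r of 0.945 to 0.999 (at most 0.900 for other pairs) and were summed, which left 149 cells. Library totals ran from 535369 to 38680739 counts (median 10735985). Since no label names an animal or culture, each group was treated as 1 sample and no test was made. Levels are the summed counts of a group's cells per 1000000 counts of that group (CPM), and log2 ratios used a pseudocount of 1 CPM. Genes with 10 or more counts among the cells compared, and with counts in 3 or more of these cells, were measured, and a log2 ratio of 1 or more in size was counted as a 2-fold difference. Detection used 1 random thinning to 1000000 counts (seed 7), with at least 5 counts. A count of 0 was bounded with 3 counts over the group. The procedure was tested on simulated counts for CA1 against cortical slice neurons, where all of 100 genes changed 4-fold and 100 changed 8-fold passed the limit, and 0% of 13509 unchanged genes did. The simulation holds counting error only, not differences between cells.

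The members and marker lists were chosen with earlier results of these data known. All 9 members were named, with, for each other list, up to 4 genes with the largest difference in detection, and up to 3 genes per member with r of at least 0.6. Other genes were named as markers of another cell type. For CA1 against the cortex, the lists of further CA3, CA2 and transcription factor genes had median log2 ratios of -0.95, 0.39 and 0.27, and for CA3 against the cortex the further CA3 and CA1 lists -0.06 and -3.30. Alternatives covered other scalings (edgeR 4.0.16 and DESeq2 1.42.0 factors in R 4.3.3), means and medians of cells, pseudocounts, filters, repeat libraries, basecalling version, cells with markers of other types and leaving out each neuron. Astrocytes were not left out in turn. Computation used Python 3.11.15, numpy 2.4.6, pandas 2.3.3, scipy 1.17.1 and matplotlib 3.10.9.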

Additional observations from a re-analysis of the deposited data

Results flagged for a closer look

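A gap test (Dixon, at the 95% level) was made in the groups of 4 to 10 cells, the CA3 slice neurons and the cultured hippocampal neurons. It covered the highest and the lowest cell in 12 sets of values, each of 1 gene in 1 group, and not every gene with counts. It marked 7 of the 12 sets, 58.3%, where chance marks about 1 in 20 for normally distributed values. That rate does not hold for levels with many values of 0. In 2 of these sets, Fibcd1 and Wfs1 in CA3, a single cell had any count.

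In CA3, cell 1 stood above the others for Wfs1, at 352 CPM against no count in the rest, and it also had Cpne4, Socs2 and Nptx1 detected. CA3 cell 2 stood above the others for Fibcd1, at 1.69 CPM, and below them for Nptx1, at 0.198 CPM. That cell was the 1 CA3 cell with 2 microglia markers and had the highest Zbtb20 level of the 5.

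Among cultured hippocampal neurons, cell 5 stood above the others for Nov, at 48.2 CPM, and cell 7 for Cpne4, at 177 CPM. Cell 3 stood below the others for Mpped1, at 0 CPM, and had only Wfs1 of the 9 genes detected. Cell 6 stood below the others for Wfs1, at 0 CPM, with Mpped1 and Socs2 detected.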

How the results depend on the processing

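Of 38 differences of at least 2-fold among 49 measured, 11 fell below 2-fold in the same direction, or turned, when a single neuron was left out. Cases in which the gene was then no longer measured were not counted among these. In the hippocampal over the cortical culture, 20 of 21 such ratios were left for Nptx1 and 18 for Prox1. Without cortical culture cell 4 Nptx1, and without cell 12 Prox1, had too few counts to be measured, so these 2 differences also rested on single cells. Kept past 2-fold in the same direction were 18 with the median of cells, 35 with their mean, 33 and 32 with edgeR and DESeq2 scaling (taken as means of cells), 32 with bcl2fastq2 alone and 32 without slice cells with 2 microglia markers. Other pseudocounts, filters and repeat libraries kept 36 to 38. The number of members higher in CA1 than in the cortex was 1 with the median of cells in place of 3. That in the hippocampal over the cortical culture was 1 with either scaling in place of 3, and that in astrocytes over cortical neurons was 5, in place of 2, both with bcl2fastq2 alone and without neurons with more astrocyte than neuron markers. Leaving out each neuron, but no astrocyte, these counts ranged from 3 to 3, from 2 to 4 and from 2 to 4, and those for CA3 over CA1, CA3 over the cortex and hippocampal culture over CA1 from 4 to 5, 4 to 5 and 2 to 4.

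Directions of differences of at least 2-fold turned as follows, and the cause was not tested. With the median of cells the log2 ratio of Wfs1 was -0.10 for CA1 over the cortex and 5.14 for hippocampal culture over CA1. Scaling turned Zbtb20 in CA3 over CA1 (-0.28, edgeR), Mpped1 in the hippocampal over the cortical culture (-1.02, edgeR, and -3.20, DESeq2), Socs2 in CA3 over the cortex (-0.42, DESeq2) and Nov in the hippocampal culture over CA1 (-0.51, DESeq2). Nov in the hippocampal over the cortical culture was 2.54 with bcl2fastq2 alone and 2.86 without neurons with more astrocyte markers, Socs2 in CA1 over the cortex 1.10 without slice cells with 2 microglia markers, and Prox1 in astrocytes over neurons 0.32 without neurons with Gad1. Leaving out single neurons, the ratios of hippocampal over cortical culture ranged from -4.50 to 1.28 for Nov and from -4.43 to 0.45 for Cpne4. Those of astrocytes over neurons ranged from -1.26 to 0.45 for Socs2 and from -2.80 to 0.33 for Prox1, and that of hippocampal culture over CA1 from -0.54 to 2.64 for Nov. Ratios under 2-fold turned too, such as Wfs1 in CA3 over the cortex (-5.06 with bcl2fastq2 alone, -5.30 without CA3 cell 1), Mpped1 in hippocampal culture over CA1 (2.86, median of cells), Wfs1 in the hippocampal over the cortical culture (-1.05, DESeq2), and Nov and Nptx1 in astrocytes over neurons (3.53 and 1.60 with bcl2fastq2 alone).

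With the means of cells, scaling by edgeR and DESeq2 moved the median log2 ratio of all genes from -0.67 to -1.20 and -1.46 for CA3 over CA1. It moved from -1.06 to -1.52 and -1.51 for CA3 over the cortex, and from 0.19 to -0.41 and -1.02 for hippocampal over cortical culture. For hippocampal culture over CA1 it moved from 0.98 to 0.11 and -0.66, and for astrocytes over neurons from 0.12 to 0.18 and 0.20. The share of higher among 2-fold different genes moved from 55.4% to 32.6% and 18.7% for the cultures and from 72.2% to 52.2% and 33.7% for hippocampal culture over CA1. Of 216 recomputed detection shares 11 left their interval. No paired analysis was possible because no label pairs cells across groups. The small numbers of 5 CA3 and 8 cultured hippocampal cells limit the precision of their values.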
